A study of Mus musculus with 24 samples.

Results

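Testis RNA of mice kept at 13 µGy/min was compared with testis RNA of mice kept at 0.032 µGy/min, the highest and the lowest of the dose rates in the study. The comparison rests on 6 of the 24 arrays of the series, chosen by tissue and dose rate alone, with 3 arrays of mice H132, H134 and H139 at 13 µGy/min and 3 of mice L117, L118 and L119 at 0.032 µGy/min. All 6 mice were irradiated with γ-rays from a 137Cs source for 22 h a day over 485 days, which summed to 8000 mGy at the high and 21 mGy at the low dose rate. Tissue was taken as soon as irradiation ended. Unirradiated controls (mice C102, C109 and C110) and mice at 0.65 µGy/min with a total of 420 mGy (M125, M129 and M130) gave 3 testis arrays each. These other 6 arrays entered the fit and are shown beside the results. The labels used here give neither strain nor age, and they call the arrays of a group biological replicates. Sample identifiers count upwards through control, low, mid and high dose rate, and nothing used here states which arrays shared a chip. Any effect of handling order and the dose rate cannot be told apart.

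The testis consists mostly of germ cells at successive stages, from spermatogonia through meiotic spermatocytes to spermatids that compact their chromatin with protamines. Sertoli cells carry the germ cells inside the seminiferous tubules, and Leydig cells between the tubules turn cholesterol into testosterone under luteinizing hormone. Dividing spermatogonia are known as the radiosensitive germ cells, while Leydig and Sertoli cells of the adult divide little. In whole tissue, fewer cells of a type and less RNA per cell cannot be told apart.

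Testis RNA was recognisable by its germ cell transcripts. Prm2, protamine 2 of the sperm nucleus, lay between 15.86 and 15.94 on the log2 signal scale on all 12 arrays. Of 47 marker genes of spermatids and sperm, 13 had a named probe and 12 were measurable. Named probes of spermatogonia (4 of 18 genes: Zbtb16, Gfra1, Nanos2 and Nanos3) and of spermatocytes (3 of 29: Syce2, Tex12 and Mnd1) did not reach the level needed for a test. The 3 spermatocyte probes and the 3 named epididymis probes were above the noise limit on none (0) of the testis arrays. Named probes thus gave no value for the earlier germ cell stages.

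A probe was tested if its signal exceeded its array's noise limit, percentile 99 of the values below 0 after mirroring, on at least 3 of the 6 arrays. This left 13356 of 46133 probes, of which 3839 carried a gene symbol (3508 symbols). The noise limit was highest on the high-dose-rate arrays H134 and H139, at 140.3 and 146.6 signal units, while the other 10 testis arrays lay between 94.5 and 121.6. Probes above the limit numbered 12190 and 11892 on these arrays and 12853 to 14866 on the others. Among the tested probes, 234 were above the limit on all 3 low and no high array, and 10 on all 3 high and no low array. The 4504 tested probes with a mean log2 signal below 8 had a median log2 difference of −0.019, beside −0.020 to −0.013 in brighter classes. The part of the noise limit in single results was not tested. Gene list medians that turned without arrays H134 and H139 are also given without them.

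**Figure D1:**
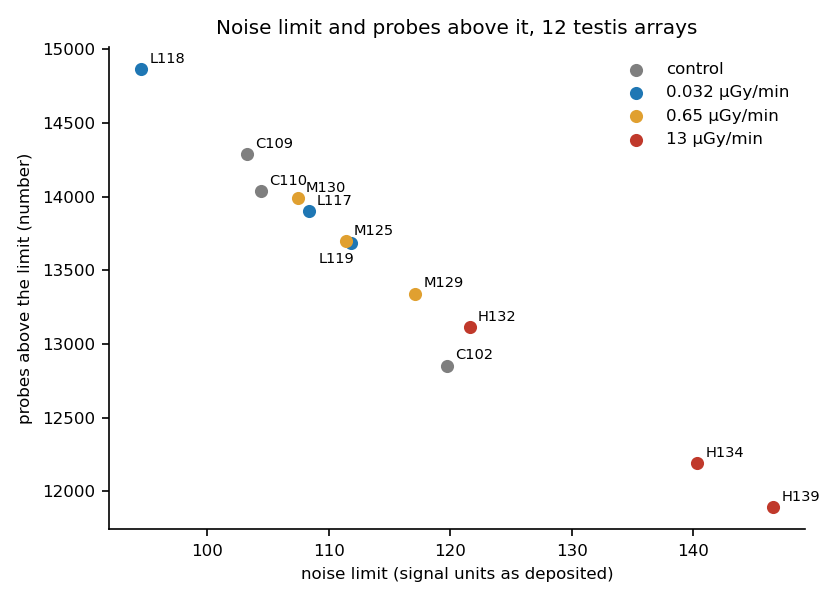
Noise limit in deposited signal units (x axis) and number of probes above it (y axis) for the 12 testis arrays, labelled by mouse number and coloured by dose rate. Arrays H134 and H139 at 13 µGy/min had the highest limits (140.3 and 146.6) and the fewest probes above them (12190 and 11892).

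At 13 µGy/min, 5 probes rose and 6 fell against 0.032 µGy/min, so that 11 of 13356 probes passed (0.0824%; 0.0374% higher and 0.0449% lower). The test was limma's moderated t-statistic over all 12 testis arrays, with a Benjamini-Hochberg adjusted p below 0.05, and all 11 probes had an adjusted p of 0.0490. At an unadjusted p below 0.05 there were 2340 probes (17.5%), of which 1115 were higher and 1225 lower. The gene lists below use 1 probe a gene. Counted that way, 321 of 3503 tested genes were higher and 343 lower at this p, and 376 and 416 did not overlap. Shares of all probes given beside the lists are therefore only a rough background. The signals of the high and low groups did not overlap in 2770 probes (20.7%), with the high group above in 1300 and below in 1470. Over all tested probes the median log2 difference was −0.016, and 47.3% of probes were above 0. The count depended on single arrays: it was 0 when any of 9 of the 12 arrays was left out, H134 and H139 among them, 4 without L118, 1 without M125 and 135 without H132. None (0) of the 11 was among the 4 or the 1, and all 11 were among the 135.

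Of the probes that passed, 4 carried a gene symbol. Slc25a45, a member of the mitochondrial solute carrier family, was at 10.44, 10.61 and 10.44 on the high arrays (mice H132, H134 and H139) and at 9.86, 9.88 and 9.86 on the low arrays. The control arrays lay at 10.08, 9.96 and 10.02 and the mid arrays at 10.01, 10.10 and 9.95, so the high group stood above all other arrays and the low group below them. The log2 difference was +0.63 ± 0.082 (SE, n = 3 a group), or 1.55-fold, and it was between +0.57 and +0.66 under all 24 alternatives. It passed the threshold in only 7 of these 24. Of the other 3 named genes, Tmed4 passed in 6 of 24 alternatives, Sfmbt1 in 5 of 23 and 1700016K19Rik in 6 of 23.

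Tmed4, a p24 family protein of transport between the endoplasmic reticulum and the Golgi apparatus, was at 8.37, 8.40 and 8.13 on the high arrays and at 9.09, 9.12 and 8.97 on the low arrays. Controls lay at 8.87, 8.97 and 8.94 and the mid arrays at 8.42, 8.62 and 8.45, so the mid arrays lay nearer to high and the controls nearer to low. The difference was −0.76 ± 0.099, 1.69-fold lower at the high dose rate. Other probes of Tmed4 disagreed, at −1.10 (limma adjusted p = 0.138) and +0.13 (adjusted p = 0.713), so the gene as a whole has no settled direction.

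Sfmbt1, a Polycomb-associated protein with MBT domains that bind methylated histone tails, was at 8.05, 8.27 and 7.85 on the high arrays and at 9.22, 8.79 and 9.01 on the low arrays. High and low did not overlap. The mid arrays (8.38, 8.52 and 8.53) lay between them, and the controls (8.80, 8.59 and 8.59) reached into the low range. The difference was −0.95 ± 0.14, 1.93-fold lower, while a further probe of Sfmbt1 gave −0.33 with an adjusted p of 0.338 in the limma fit.

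1700016K19Rik, also named Liat1 for a ligand of the arginyltransferase ATE1, was at 8.84, 9.0 and 8.79 on the high arrays against 9.64, 9.41 and 9.47 on the low arrays. Its controls lay at 9.38, 9.40 and 9.48 and its mid arrays at 9.01, 8.91 and 8.95, again with mid beside high. The difference was −0.63 ± 0.091, 1.55-fold lower.

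The remaining 7 probes that passed had no symbol in the tables used here. Probes 106130204 and 101780524 rose by +0.70 ± 0.082 and +1.05 ± 0.14. Probes 110280 and 6980551 fell, with differences of −1.34 ± 0.19 and −1.15 ± 0.16, and the first was above the noise limit on 1 of the 3 high arrays. Probe 106130204 was the most uniform of these, at 9.16, 9.16 and 9.14 on the high and 8.51, 8.36 and 8.48 on the low arrays.

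Promoter windows of 250 bases before the annotated start, from RefSeq on GRCm38.p6, are shown for the named genes that passed and had an entry. Capitals mark the letters AGGTCA or their reverse complement TGACCT, the half-site of many nuclear receptors, and CACGTG, the E-box that reads the same on both strands. AGGTCA occurred in 14.0% and CACGTG in 6.0% of all 32851 windows of this length, and the motifs do not overlap each other in letters here. Slc25a45 (chr19:5877572-5877821, plus strand) held 1 AGGTCA, Sfmbt1 (chr14:30714917-30715166, plus strand) held 1 CACGTG, and Tmed4 (chr11:6274838-6275087, minus strand) held neither. A match describes letters in a window and shows no binding. Windows were looked up for 8 genes and found for 5, and 1700016K19Rik, Star and Scarb1 had no entry.
Slc25a45: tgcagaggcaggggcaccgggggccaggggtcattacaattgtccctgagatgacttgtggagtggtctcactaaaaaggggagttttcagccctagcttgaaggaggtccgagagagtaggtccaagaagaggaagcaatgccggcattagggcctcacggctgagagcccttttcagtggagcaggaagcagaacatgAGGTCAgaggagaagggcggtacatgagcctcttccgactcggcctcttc
Sfmbt1: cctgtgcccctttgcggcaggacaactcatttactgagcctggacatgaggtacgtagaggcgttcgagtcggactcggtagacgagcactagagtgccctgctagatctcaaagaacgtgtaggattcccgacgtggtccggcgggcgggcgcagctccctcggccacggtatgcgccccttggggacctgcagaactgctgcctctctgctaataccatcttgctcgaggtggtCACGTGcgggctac
Tmed4: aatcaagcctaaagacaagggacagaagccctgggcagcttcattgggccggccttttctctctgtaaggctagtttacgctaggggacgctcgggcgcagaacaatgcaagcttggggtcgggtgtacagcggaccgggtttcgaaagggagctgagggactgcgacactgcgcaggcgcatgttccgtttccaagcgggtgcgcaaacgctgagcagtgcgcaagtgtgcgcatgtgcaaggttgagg

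**Figure D2:**
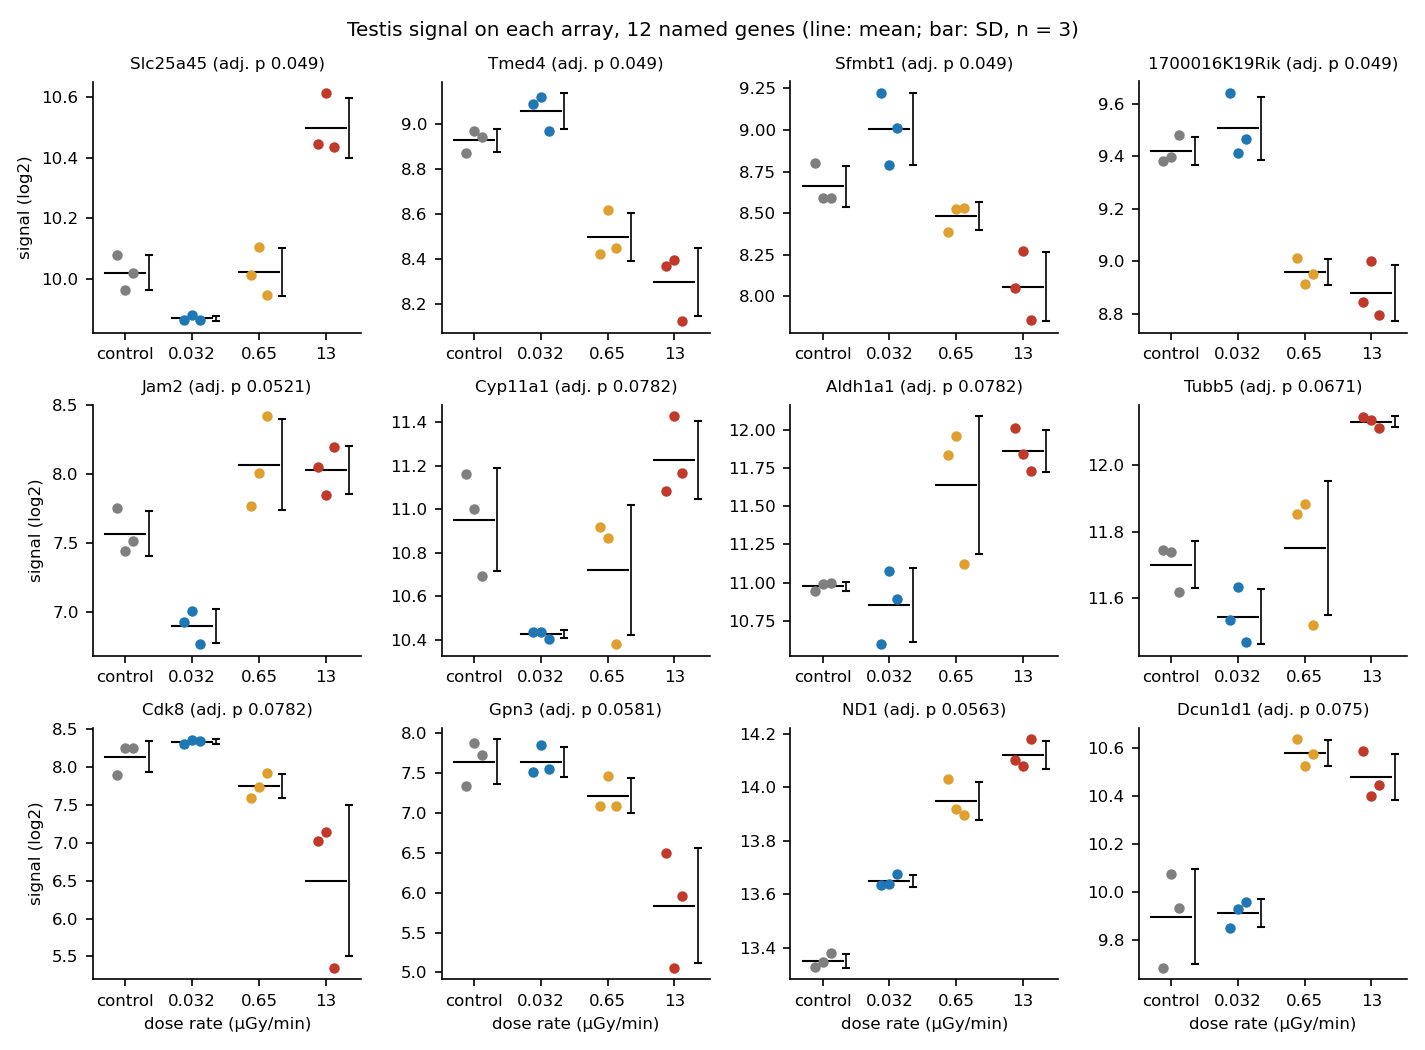
Log2 signal (y axis) of 12 named genes on each of the 12 testis arrays, by dose rate in µGy/min (x axis). Points are arrays, lines group means and bars SD with n = 3, and titles give the limma adjusted p of high against low. Slc25a45, Tmed4, Sfmbt1 and 1700016K19Rik passed (0.0490), and the other 8 did not.

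Genes with the next smallest p did not pass, and their values are given as measured. Among those higher at 13 µGy/min, Jam2, a junctional adhesion molecule, was at 8.05, 7.85 and 8.19 against 6.92, 7.01 and 6.76 at 0.032 µGy/min. This was a difference of +1.13 ± 0.17 (limma adjusted p = 0.0521), with controls at 7.75, 7.44 and 7.51 between the groups and 2 of the 3 low arrays above the noise limit. Aldh1a1, which makes retinoic acid from retinaldehyde, was at 12.01, 11.84 and 11.73 against 10.59, 11.07 and 10.89. Its difference of +1.01 ± 0.20 (adjusted p = 0.0782 in limma) was 2.01-fold, and the mid arrays spread from 11.12 to 11.96.

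Tubb5, a β-tubulin, was at 12.14, 12.14 and 12.11 against 11.53, 11.63 and 11.47, a difference of +0.59 ± 0.11 (limma adjusted p = 0.0671). Marcks, an actin-binding substrate of protein kinase C, was at 10.26, 10.54 and 10.28 against 9.45, 9.81 and 9.64, or +0.73 ± 0.12 (limma adjusted p = 0.0563). Pdlim1, a PDZ and LIM domain protein of actin filaments, was at 9.82, 9.93 and 9.88 against 9.08, 9.36 and 9.23, or +0.65 ± 0.12 (limma adjusted p = 0.0690). In all 3 genes the mid arrays overlapped the low arrays and the high arrays stood above every other array.

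The other higher genes with a small p were Fam3c, a secreted cytokine-like protein (+0.68 ± 0.11), Gorasp2, a Golgi stacking protein (+0.64 ± 0.12), Dcun1d1, which promotes neddylation of cullins (+0.57 ± 0.11), and Slc44a2, a choline transporter-like protein (+0.43 ± 0.085). Gorasp2 and Dcun1d1 had mid arrays at 10.47, 10.41 and 10.18 and at 10.64, 10.53 and 10.58, which overlapped the high arrays. Kctd20 differed by +0.77 ± 0.15, but its other probes gave −0.23 and −0.31. Speer6-ps1, annotated as a transcribed pseudogene, differed by +0.49 ± 0.099, and 1700020D14Rik, annotated on the Y chromosome, by +1.20 ± 0.24. Both are uncertain, since a probe can read near-identical copies, and 1700020D14Rik was above the noise limit on 2 of 3 low arrays.

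Among the genes lower at 13 µGy/min, Ero1b, an oxidase of disulfide formation in the endoplasmic reticulum, was at 9.30, 9.08 and 9.24 against 9.76, 9.88 and 9.72. The difference was −0.58 ± 0.092 (limma adjusted p = 0.0563). Cinp, a partner of cyclin-dependent kinase 2 in the replication checkpoint, was at 8.15, 7.49 and 7.47 against 8.64, 8.88 and 8.79, a difference of −1.06 ± 0.18 (limma adjusted p = 0.0563). In Cinp arrays H134 and H139, which had the highest noise limits, were the lowest of the group, and without them its difference was −0.62.

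Xab2, an XPA-binding protein of transcription-coupled repair and splicing, was at 8.15, 8.12 and 7.78 against 8.77, 8.60 and 8.63, or −0.65 ± 0.14 (limma adjusted p = 0.0782). Zhx1, a zinc finger and homeobox repressor, differed by −0.58 ± 0.11, Ap2a1, a subunit of the AP-2 endocytic adaptor, by −0.55 ± 0.11, and Myo9b, an unconventional myosin, by −0.77 ± 0.15. Eps8l3 differed by −0.88 ± 0.18 and Zcchc14 by −0.61 ± 0.12. The high group was below the low group without overlap in all 6 of these genes, as it was in 11.0% of all probes, and the choice by small p favours this.

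In 4 further genes of this set the high group was above the noise limit on none (0) of its arrays, so they entered the test through the low group, where they were higher. Gpn3, a GTPase that helps to import RNA polymerase II into the nucleus, was at least 1.49-fold lower at the high dose rate (limma adjusted p = 0.0581). The measured means were 7.63 ± 0.19 (SD, n = 3) at low and 5.84 ± 0.72 at high dose rate, and the bound carries no error of the low mean. Eif4b, a translation initiation factor, was at least 1.24-fold lower, and AW554918 at least 1.39-fold. These bounds set the mean of the low group against, on each high array, the higher of the lowest signal above the limit and the probe's own. Dennd4b allowed no bound.

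The mid and control arrays gave a comparison that shares no array with high against low. Of the 30 named genes with the smallest p, 28 had a mid minus control difference of the same sign as their high minus low difference (93.3%), and so had 10 of the 11 probes that passed (90.9%). The share was 58.7% over all 13356 probes and 70.0% over the probes with an unadjusted p below 0.05. Pdlim1 (−0.34) and AW554918 (+0.11) were the exceptions among the 30 genes, and probe 110280 (+0.22) among those that passed. The 28 genes include Gpn3, Eif4b and Dennd4b, which entered the test only through the low group. Dennd4b was above the noise limit on none (0) of the control and mid arrays, so its sign cannot be read. Across all tested probes the differences correlated at r = 0.19 (Pearson) and 0.23 (Spearman), given as a description, since genes are not independent replicates and all 12 arrays were scaled together. In the fit itself, mid against control gave 12 probes that passed (0.0898%), all higher, high against control gave 1 (0.00749%), and low against control gave 0. Nor did any (0) pass in mid against low or high against mid. These comparisons share groups with each other.

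Among cell type lists with at least 3 tested genes, Leydig cell genes had the highest median. Of 16 genes 7 were on the array, 4 were tested, and none (0) passed the limma test, while 1 had an unadjusted p below 0.05, as had 17.5% of all probes. All 4 were higher at 13 µGy/min, with a median log2 difference of +0.42, beside −0.016 over all probes. Cyp11a1, the cholesterol side-chain cleavage enzyme that starts steroid synthesis, was at 11.08, 11.43 and 11.16 against 10.44, 10.44 and 10.40. The controls at 11.16, 11.00 and 10.69 overlapped the high arrays and lay above the low arrays, and the mid arrays spread from 10.38 to 10.92. The difference between high and low was +0.80 ± 0.17, or 1.74-fold (limma adjusted p = 0.0782).

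Star, which carries cholesterol into the mitochondrion, was at 8.02, 7.62 and 7.40 against 7.48, 7.22 and 6.64, a difference of +0.57 ± 0.27 (limma adjusted p = 0.317), with 2 of 3 low arrays above the noise limit. Scarb1, the receptor for high-density lipoprotein, was at 11.94, 11.98 and 11.66 against 11.64, 11.59 and 11.56, or +0.26 ± 0.17 (adjusted p = 0.453 in limma). Insl3, the peptide hormone of Leydig cells, was at 13.12, 12.30 and 13.07 against 12.47, 13.15 and 12.29, or +0.20 ± 0.32 (adjusted p = 0.80 in limma). The high group was above the low group without overlap in Cyp11a1 and Scarb1, as it was in 9.73% of all probes. The groups overlapped in Star and Insl3.

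The summed signal of the 4 Leydig genes was 15271 (H132), 12048 (H134) and 14294 (H139) units on the high arrays, 10406, 13718 and 9495 on the low arrays and 12082 to 14878 on the control arrays. By this sum, to which Insl3 as the brightest gene adds most, low array L118 was above high array H134. The mean log2 deviation, in which each gene weighs the same, was +0.40, +0.19 and +0.18 on the high arrays. It was −0.14, −0.044 and −0.42 on the low arrays, without overlap, and the controls (+0.32, +0.084 and −0.097) overlapped both groups. The mid arrays were at +0.060 (M125), +0.045 (M129) and −0.58 (M130), so M130 lay below every low array. With a median mid minus low difference of +0.029, the list did not rise evenly with the dose rate. The list's median low minus control difference was −0.30 and its high minus control difference +0.20, so part of the gap between high and low lay in the low group standing below control. Lhcgr, the receptor for luteinizing hormone, Por and Srd5a1 were not above the limit on enough arrays to be tested.

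RefSeq on GRCm38.p6 gives 2 promoter windows for Cyp11a1, shown because steroidogenic genes are regulated by SF-1, a nuclear receptor that reads the AGGTCA half-site. The window at chr9:58014702-58014951 (plus strand) held 1 AGGTCA near its end, in capitals, and the window at chr9:57997774-57998023 (plus strand) held none. Of the other 3 tested Leydig genes only Insl3 had an entry, and its window (chr8:71689002-71689251, plus strand) held neither AGGTCA nor CACGTG. Only exact matches were searched, so a window without one can hold near matches, and nothing on SF-1 sites follows from it.
Cyp11a1 downstream start: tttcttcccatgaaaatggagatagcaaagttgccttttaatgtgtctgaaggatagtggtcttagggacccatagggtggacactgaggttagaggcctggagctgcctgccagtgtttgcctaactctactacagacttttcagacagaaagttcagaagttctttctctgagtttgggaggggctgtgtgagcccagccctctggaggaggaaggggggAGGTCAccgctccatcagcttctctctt
Cyp11a1 upstream start: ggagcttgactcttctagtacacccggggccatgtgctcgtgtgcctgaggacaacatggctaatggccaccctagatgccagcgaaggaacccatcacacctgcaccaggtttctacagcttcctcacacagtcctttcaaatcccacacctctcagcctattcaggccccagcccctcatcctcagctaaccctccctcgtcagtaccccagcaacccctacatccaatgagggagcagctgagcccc

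Cholesterol synthesis genes had a median of +0.15, with 6 of 9 tested genes higher and 3 lower. The median was +0.29 without H134 and +0.094 without L118. None (0) passed in limma, and 3 higher and 1 lower had an unadjusted p below 0.05 (44.4%), beside 17.5% of all probes. Hmgcs1, which makes the precursor of mevalonate, was at 12.95, 12.60 and 12.85 against 12.26, 12.29 and 12.25, a difference of +0.54 ± 0.18 (limma adjusted p = 0.182). Nsdhl, a later enzyme of sterol synthesis, differed by +0.53 ± 0.19 (adjusted p = 0.192). Lss, lanosterol synthase, went the other way, at 7.15, 7.16 and 7.09 against 7.92, 7.92 and 7.71 (−0.72 ± 0.17, adjusted p = 0.0977), with 2 of 3 high arrays above the noise limit. Cyp51 was at +0.34 ± 0.14 on its brightest probe and −0.12 on another.

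**Figure D3:**
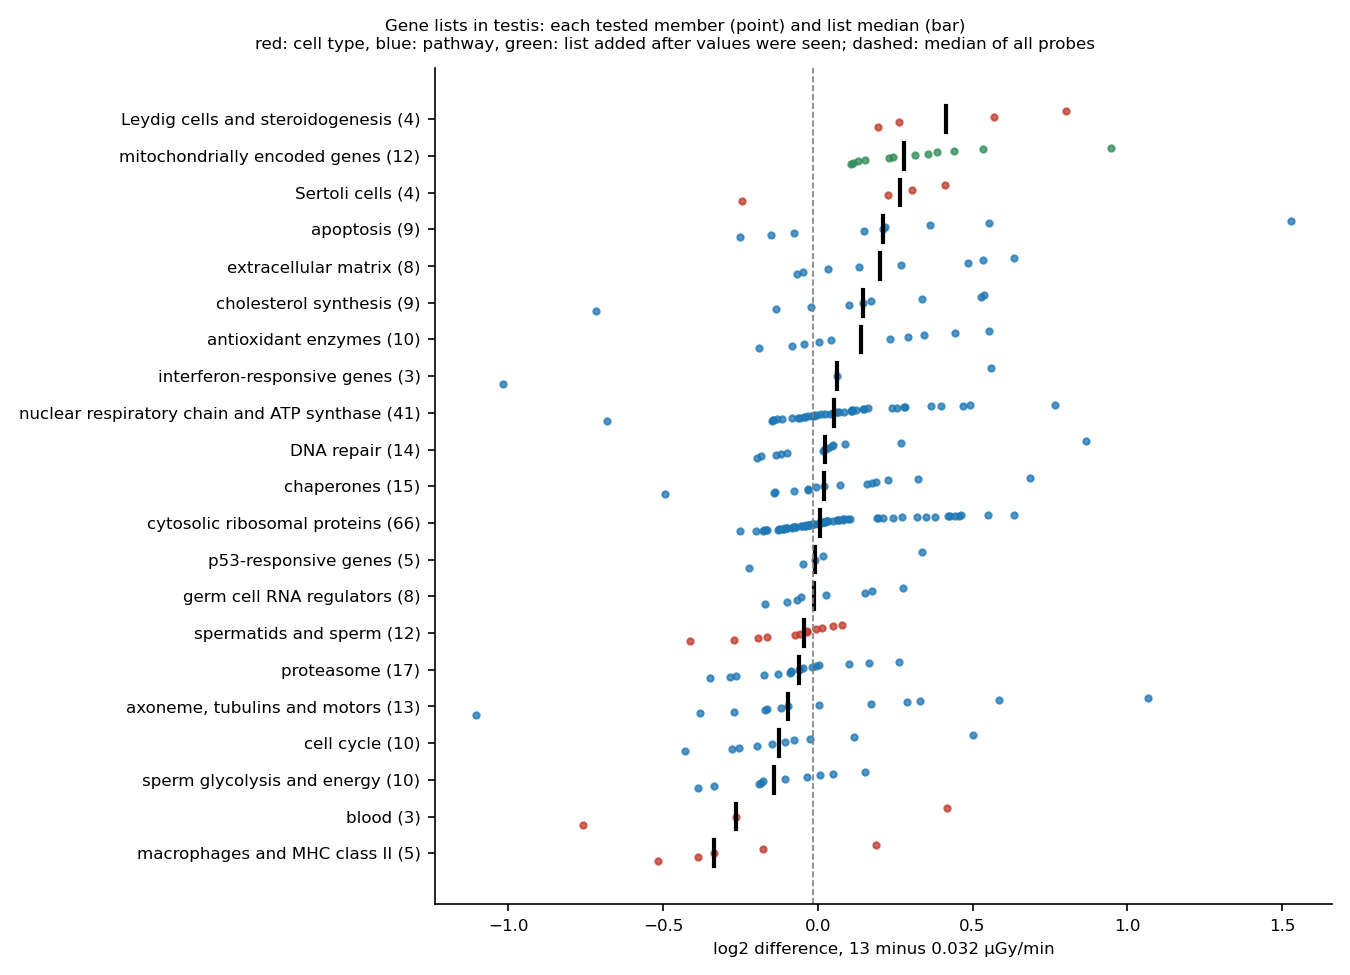
Log2 difference between 13 and 0.032 µGy/min (x axis) of every tested member of 21 gene lists with at least 3 tested members (y axis, number tested in brackets). Black bars are list medians and the dashed line is the median of all probes (−0.016). Leydig genes (+0.42) and mitochondrially encoded genes (+0.28) had the highest medians and macrophage genes (−0.33) the lowest.

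Among other somatic cells, 3 of 4 tested Sertoli cell genes were higher, with a median of +0.27 and no gene (0) past the limma threshold. Aard, a gene of Sertoli cells, was at 13.86, 14.03 and 13.78 against 13.31, 13.65 and 13.47, a difference of +0.41 ± 0.11 (limma adjusted p = 0.119). Wt1, the Wilms tumour transcription factor, was at 10.57, 10.44 and 10.05 against 9.88, 10.19 and 10.08, and its groups overlapped. Dhh differed by +0.23 ± 0.12 (limma adjusted p = 0.353). Trf, the dimmest of the 4, went the other way, at −0.25 ± 0.44 (limma adjusted p = 0.821), with overlapping groups. By the mean deviation of the 4 genes array H139 was at −0.30, against +0.33 on both H132 and H134. By their summed signal H139, at 15907 units, was above all low arrays (11926, 15021 and 13319).

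In macrophages, 4 of 5 tested genes were lower and the median was −0.33, but −0.12 without L118 and +0.049 without both H134 and H139. None (0) was past the limma threshold and 1 had an unadjusted p below 0.05 (20%), beside 17.5% of all probes. H2-Ab1, a chain of MHC class II, was at 8.14, 8.61 and 8.83 against 8.95, 9.43 and 8.76 (−0.52 ± 0.21, limma adjusted p = 0.254). Low array L118 carried the highest summed signal of the 5 genes, 2619 units against 1598 to 1633 on the other low arrays and 1530 to 1697 on the high arrays. Immunoglobulin transcripts varied within groups, with Igkc at 4.69, 10.53 and 8.80 on the low and 7.45, 6.0 and 8.29 on the high arrays. The part of immune cells in results that rest on array L118 was not tested. Of the smaller cell type lists, Eng and Pecam1 of endothelium were lower (−1.44 ± 0.67 and −0.34 ± 0.73), and Mylk of peritubular myoid cells was higher (+0.25 ± 0.17). Fabp4 of fat differed by +0.93 ± 0.73, and Hba-a1 of blood by +0.42 ± 0.79. Apart from Mylk and Hba-a1, each was above the noise limit on only some of the arrays of a group.

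Spermatid and sperm genes differed little. Of 12 tested genes 3 were higher and 9 lower, with a median of −0.046 and a range from −0.41 to +0.077. None (0) passed in limma, and 2 lower genes had an unadjusted p below 0.05, or 16.7%, near the 17.5% of all probes. Akap3, an anchor protein of the sperm fibrous sheath, was at 12.41, 12.60 and 12.44 against 12.77, 12.79 and 12.70. Its difference was −0.27 ± 0.083 (limma adjusted p = 0.154), and the mid arrays at 12.64, 12.52 and 12.47 lay with high. Catsper2, a subunit of the sperm calcium channel, was at 13.36, 13.27 and 13.29 against 13.44, 13.54 and 13.53 (−0.19 ± 0.087, adjusted p = 0.284). Prm2 was at 15.91, 15.86 and 15.91 against 15.91, 15.87 and 15.91, at the top of the scaled range. Without arrays H134 and H139 the median of the list was +0.013.

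For sperm energy supply, 7 of 10 tested genes were lower and the median was −0.14, with none (0) past the limma threshold. An unadjusted p below 0.05 was found for 2 (20%), beside 17.5% of all probes. The median was −0.046 without H132, −0.081 without L119 and −0.084 without H139. Eno1, enolase of glycolysis, was at 11.28, 11.04 and 11.22 against 11.47, 11.61 and 11.46 (−0.34 ± 0.095, limma adjusted p = 0.135), and the mid arrays at 11.25, 11.23 and 11.16 lay with high. Hk1, hexokinase, was at 9.30, 9.0 and 8.91 against 9.37, 9.64 and 9.36 (−0.39 ± 0.17, adjusted p = 0.284). Gapdhs, the sperm form of glyceraldehyde phosphate dehydrogenase, was at 14.67, 14.80 and 14.81 against 14.82, 14.86 and 14.69, which overlapped.

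Axoneme, tubulin and motor genes split, with 6 higher and 7 lower of 13 and a median of −0.095. The median turned to +0.018 without H139 and to +0.036 without both H134 and H139, and it was −0.028 without L118. Tuba3a, a testis α-tubulin, was at 14.50, 14.37 and 14.18 against 14.53, 14.73 and 14.59 (−0.27 ± 0.10, limma adjusted p = 0.229), and its other 2 probes gave −0.30 and −0.35. Tubb4b, at −0.10 ± 0.11, and Tubb5, at +0.59 ± 0.11, are both β-tubulins. Germ cell RNA regulators had 4 higher and 4 lower of 8 and a median of −0.014, which was +0.12 without H134 and H139. Pabpc1, a poly(A)-binding protein, was at 14.21, 14.14 and 14.19 against 13.89, 14.10 and 14.09 on its brightest probe. Its other tested probes went the other way, at −0.24 and −0.40, so the gene has no settled direction.

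Mitochondrially encoded genes, a list added after their values were seen, were all higher (12 of 12 tested, median +0.28). None (0) of their brightest probes passed in limma, 7 had an unadjusted p below 0.05, beside 17.5% of all probes, and 7 did not overlap between the groups, beside 9.73%. ND5, a subunit of complex I, was at 12.51, 12.37 and 12.45 against 12.07, 11.90 and 11.75, a difference of +0.53 ± 0.10 (limma adjusted p = 0.0776). ND1, also of complex I, has a dimmer probe at 14.10, 14.08 and 14.18 against 13.64, 13.64 and 13.68 (+0.47 ± 0.073, adjusted p = 0.0563). Its controls were at 13.33, 13.34 and 13.38 and its mid arrays at 14.03, 13.92 and 13.90, so all 4 groups were separate and in the order of the dose rate. The brighter ND1 probe gave +0.23 ± 0.097 with overlapping groups.

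COX1, a subunit of cytochrome c oxidase, was at 13.74, 13.76 and 13.84 against 13.65, 13.35 and 13.40, and ATP8 of ATP synthase at 13.25, 13.10 and 13.41 against 12.98, 12.90 and 12.80. Averaged over the 12 genes, the deviation from the 12-array mean was +0.17, +0.16 and +0.31 on the high arrays, +0.006, −0.13 and −0.23 on the low arrays and −0.19 to −0.14 on the controls. The high arrays were thus above all low and control arrays, and the mid arrays (+0.059, +0.18 and −0.026) overlapped them. These transcripts are cut from long polycistronic RNAs and are not independent of each other.

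**Figure D4:**
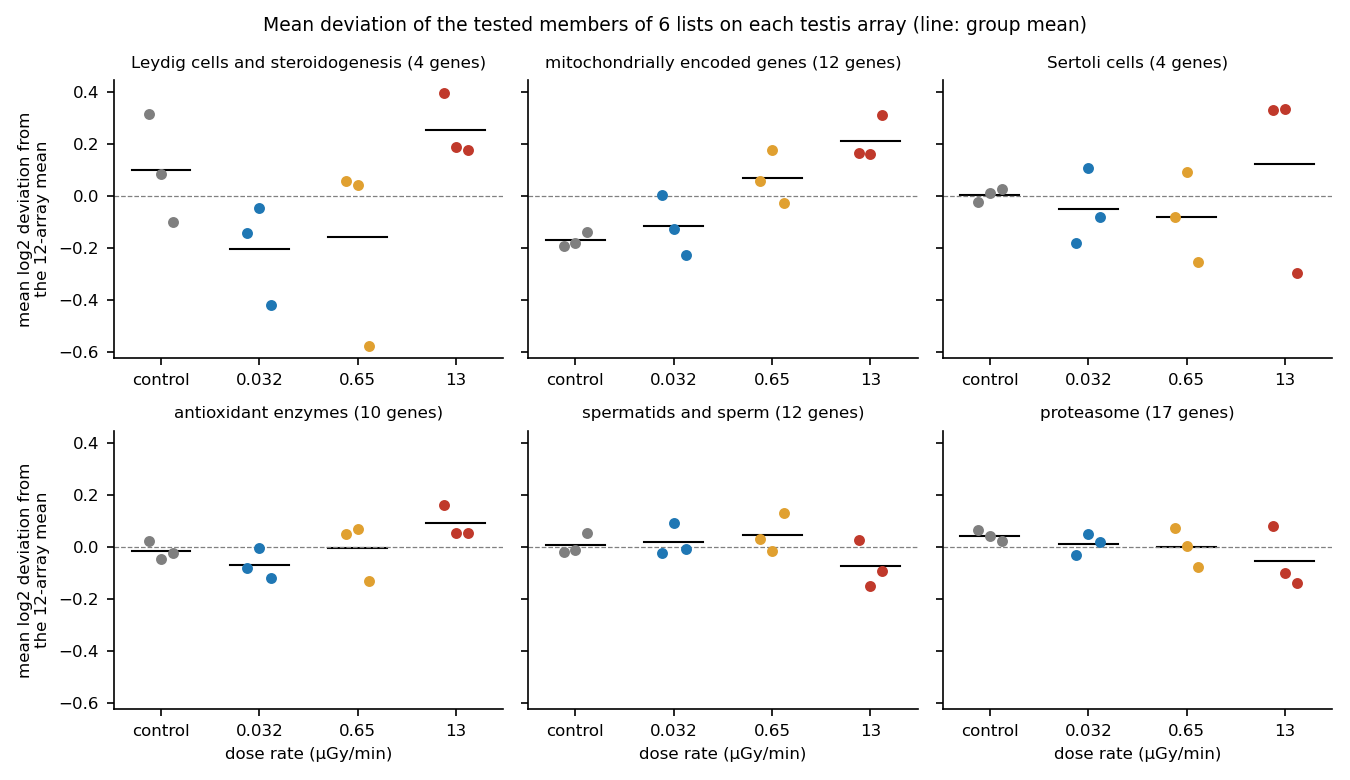
Mean log2 deviation from the 12-array mean (y axis) of the tested members of 6 lists on each testis array, by dose rate in µGy/min (x axis), with lines at group means. Mitochondrially encoded genes were at +0.16 to +0.31 at 13 µGy/min and −0.23 to +0.006 at 0.032 µGy/min, while spermatid genes overlapped between these groups.

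Nuclear genes of the respiratory chain and ATP synthase had a median of +0.051, with 25 of 41 higher, and none (0) passed in limma. An unadjusted p below 0.05 was found for 7 higher and 1 lower gene, or 19.5%, near the 17.5% of all probes. The median was +0.017 without H132 and +0.032 without H139. Ndufa4 was at 11.42, 11.32 and 11.32 against 10.85, 11.09 and 10.93 (+0.40 ± 0.12, limma adjusted p = 0.139). Ndufb7, of complex I, was at 8.29, 7.74 and 7.87 against 8.53, 8.60 and 8.81 (−0.68 ± 0.16, adjusted p = 0.0968). Cytosolic ribosomal proteins had a median of +0.006 over 66 genes, 36 higher and 30 lower, close to the −0.016 of all probes. None (0) passed in limma, and 9 higher and 2 lower had an unadjusted p below 0.05, or 16.7%, near the 17.5% of all probes.

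Antioxidant enzymes had a median of +0.14, with 7 of 10 higher and none (0) past the limma threshold. An unadjusted p below 0.05 was found for 3 (30%), beside 17.5% of all probes. Prdx2, a peroxiredoxin, was at 9.78, 9.79 and 9.81 against 9.04, 9.68 and 9.34 (+0.44 ± 0.14, limma adjusted p = 0.161). Gstm1, a glutathione transferase, was at 14.49, 14.19 and 14.33 against 13.91, 13.80 and 13.65 (+0.55 ± 0.20, adjusted p = 0.209), and its mid arrays spread from 13.45 to 14.36. Prdx1 differed by +0.29 ± 0.11, while Sod1, superoxide dismutase of the cytosol, differed by −0.044 and Mt1, metallothionein, by +0.044 ± 0.076.

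Genes known to respond to p53, the transcription factor activated by DNA damage, showed a median of −0.010 over 5 tested genes of 31. None (0) had an unadjusted p below 0.05 in limma. Cdkn1a, the cell cycle inhibitor p21, was at 8.89, 9.42 and 8.53 at 13 µGy/min against 9.02, 8.70 and 9.15 at 0.032 µGy/min, a difference of −0.01 ± 0.24 that leaves room for changes of either sign. Zmat3 differed by −0.22 ± 0.17, Aen, above the noise limit on 3 of the 6 arrays, by +0.34 ± 0.48 and Tnfrsf10b by +0.017 ± 0.17. Ccng1, cyclin G1, was above the limit on none (0) of the 6 arrays.

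DNA repair genes had a median of +0.022, with 9 higher and 5 lower of 14 and none (0) with an unadjusted p below 0.05 in limma. Without H134 and H139 the median was −0.002. Polb, the polymerase of base excision repair, was at 11.54, 11.43 and 11.45 against 11.66, 11.79 and 11.56 (−0.20 ± 0.09, limma adjusted p = 0.294), without overlap. Pcna, the replication clamp, was at 7.20, 7.47 and 7.16 against 5.65, 7.58 and 6.0, so low array L118 was above every high array, and 1 low and 2 high arrays were above the noise limit. Trp53bp1, a double-strand break protein, was at 11.76, 11.88 and 11.81 against 11.78, 11.84 and 11.74 on its brightest probe. Another probe gave −0.33 ± 0.15 (limma adjusted p = 0.302).

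Apoptosis genes had a median of +0.21, with 6 of 9 higher, none (0) past the limma threshold and 3 with an unadjusted p below 0.05, beside 17.5% of all probes. The median was +0.11 without H132 and +0.13 without L119. Bcl2l14, a BCL-2 family member, was at 9.81, 9.85 and 9.49 against 9.07, 9.26 and 9.17 (+0.55 ± 0.13, limma adjusted p = 0.0970), and the mid arrays, from 9.99 to 10.09, were higher still. Bok, a proapoptotic BCL-2 family member, was at 10.13, 9.89 and 10.12 against 9.52, 9.77 and 9.77 (+0.36 ± 0.10, adjusted p = 0.135). Casp8, an initiator caspase, was at 7.25, 7.28 and 6.79 against 4.00, 6.90 and 5.83, where 4.00 is the floor set on low signals and 1 low and 2 high arrays were above the noise limit. The median of cell cycle genes was −0.13, and 8 of 10 were lower, with none (0) past the limma threshold. An unadjusted p below 0.05 was found for 1 of the lower genes (10% of those tested), beside 17.5% of all probes. The cell cycle median was −0.071 without L118 and −0.074 without H132. Cdc25a, a phosphatase that activates cyclin-dependent kinases, was at 10.75, 10.81 and 10.36 against 10.93, 11.01 and 11.27 (−0.43 ± 0.14, limma adjusted p = 0.162).

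Proteasome genes had 4 higher and 13 lower of 17 with a median of −0.060, chaperones 8 and 7 of 15 with +0.022, and extracellular matrix genes 6 and 2 of 8 with +0.20. The proteasome median was −0.023 without H139 and +0.036 without both H134 and H139, and that of extracellular matrix genes +0.12 without L119. Psmd2 (−0.28 ± 0.13) and Psme4 (−0.26 ± 0.12), regulatory subunits of the proteasome, were below low on all high arrays, as were 11.0% of all probes. Another Psmd2 probe gave −0.20 ± 0.15 with overlapping groups. Psma2 of the core was above low on all high arrays (+0.26 ± 0.12), as were 9.73% of all probes. The limma adjusted p was 0.281 for Psmd2, 0.280 for Psme4 and 0.311 for Psma2. Timp2, an inhibitor of matrix metalloproteinases, was at 12.31, 12.37 and 12.12 against 11.71, 11.86 and 11.77 (+0.49 ± 0.14, limma adjusted p = 0.145). Interferon-responsive genes gave 3 tested members, with a median log2 difference of +0.06 that turned to −0.58 without L119 and to −0.020 without H132. Over all lists, 280 of 383 genes on the array were tested and none (0) passed in limma. An unadjusted p below 0.05 was found for 39 higher and 15 lower genes (19.3%). The 39 include 7 mitochondrially encoded genes, whose list was added after their values were seen. At 1 probe a gene, 321 of all 3503 tested genes were higher and 343 lower at this p. The share of all probes, 17.5%, counts every probe and is not the matched background.

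The same contrast in kidney asked which differences were particular to testis. Over 9034 probes above the limit in both tissues, none (0) passed the interaction test in limma, 1183 had an unadjusted p below 0.05, and the smallest adjusted p was 0.0883. In that fit of 24 arrays, high against low gave 184 probes that passed in kidney (2.04%) and 93 in testis, 71 higher and 22 lower. Of these 93, 5 were among the 11 of the testis fit. Not all 11 were among the 9034 probes, since Sfmbt1 and 1700016K19Rik were not tested in the 24-array fit. The labels do not tie kidney arrays to testis arrays, so the fit treats all arrays as independent.

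The genes with the smallest interaction p included several of those above. Pdlim1 differed by +0.65 in testis and by −0.31 ± 0.12 in kidney, at 8.64, 8.37 and 8.46 against 8.77, 8.85 and 8.77, an interaction of +0.96 ± 0.17 (limma adjusted p = 0.0883). Calhm2, a calcium homeostasis modulator, differed by +0.22 in testis, and its interaction had an adjusted p of 0.0883 in limma. In kidney Calhm2 was lower at the high dose rate and passed in the 24-array limma fit (adjusted p = 0.00225). Its kidney signal on the high arrays was too near the noise limit for a size to be given. Cdk8, the kinase of the Mediator complex, was at 7.02, 7.14 and 5.35 against 8.30, 8.36 and 8.35 in testis, or −1.83 ± 0.38, with 2 of 3 high arrays above the noise limit. In kidney Cdk8 was at 7.86, 8.17 and 7.85 against 7.94, 7.85 and 7.98, a difference of +0.041, and the interaction had an adjusted p of 0.121 in limma. Marcks differed by +0.73 in testis and −0.15 in kidney (interaction +0.87 ± 0.19), and Ppm1m by +0.49 and −0.13 (+0.62 ± 0.14). Plpp3 differed by +0.45 in testis and −0.40 in kidney (+0.85 ± 0.19). Besides Calhm2, the kidney difference passed in the 24-array limma fit in 3 of these genes, and the testis difference was the smaller. Stat3 was at −0.54 in kidney (adjusted p = 0.0339) and +0.23 in testis, Glrx2 at +0.74 (adjusted p = 0.0121) and −0.14, and Arl8b at +0.72 (adjusted p = 0.0161) and −0.18. Gpn3 had an interaction adjusted p of 0.104 in limma, and no size is given because its testis signal at the high dose rate was below the noise limit. None (0) of these interactions passed the threshold.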

How the data were processed

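The deposited value table gave each probe an intensity (linear, some below 0). The authors' normalization of the testis arrays is not stated in the labels or headers used here. Per the labels, total RNA was labelled with biotin and hybridised to Illumina Mouse-6 arrays. The 12 testis arrays were quantile scaled, floored at 16 and put on log2. No array values were identical. All 12 arrays entered a single fit in R 4.3.3 with limma 3.58.1, tested on simulated data. Levels carry SD, log2 differences limma SE, with n = 3 a group. Symbols came from gene identifiers in the deposited kidney table (9854 of 46116 probes), of which 47 other per-sample columns were not used. Kidney signals in both tables had a largest difference of 0. Genes were named by the smallest p (up to 15 in each direction), for each list the 4 smallest p and 2 brightest, a preset group of testis and p53 genes, and the 10 smallest interaction p. Members and lists were chosen with earlier results of these data known. The number of arrays limits the precision.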

Additional observations from a re-analysis of the deposited data

How the results depend on the processing

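The count of 11 probes depended on the processing. It fell to 0 with median scaling, with no scaling, with the noise limit at percentile 95 and with array weights. With only the 6 low and high arrays 1 probe passed, which was not among the 11. The count grew to 22 with no filter, 40 with the floor at 64, and 136 with probes above the limit on all 6 arrays. It was 475 with a trended and robust prior, and 695 with an unadjusted p below 0.05 and at least a 1.5-fold change. Of the 11 probes, 6 were among the 22, 10 among the 136, and all 11 among the 40, the 475 and the 695. Flooring before scaling kept 11. Leaving out each array gave 0 to 135, with 135 without high array H132, 4 without low L118, 1 without mid M125 and 0 without any of the other 9. All 11 were among the 135, and none (0) was among the 4 without L118 or the 1 without M125. Chosen after seeing the data, leaving out high arrays H134 and H139 gave 2 and the 24-array fit gave 93. Without H134 and H139 the group rests on H132 alone, assumed to vary like the others. The 0 interaction calls became 69 with no filter, 1 with the floor at 64, 701 with an unadjusted p below 0.05 and a 1.5-fold change, and 0 to 46 leaving out 1 array, with 46 without testis high H132, 23 without testis low L118, 2 without kidney low 3, and 1 without testis high H139 or kidney high 2. The medians of Leydig (+0.26 to +0.57), mitochondrially encoded (+0.22 to +0.36), antioxidant (+0.10 to +0.28) and sperm energy genes (−0.17 to −0.046) kept their sign in 24 alternatives. Those of macrophage and proteasome genes turned in 1, without arrays H134 and H139, to +0.049 and +0.036. Other medians changed sign in 4 alternatives each for p53-responsive, DNA repair, chaperone and ribosomal genes, in 7 for germ cell RNA regulators and in 2 each for axoneme and interferon-responsive genes. Causes were not tested. No paired analysis was possible because the testis groups share no mouse numbers.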
